A study of Homo sapiens with 31 samples.

Results

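The transcripts described here were captured preferentially with the initiation factor eIF4A2 in pulldowns from HEK293 T-REx cells, an established human embryonic kidney line. For each transcript, the log2 difference between pulldown and input was taken with a tagged eIF4A2 and with a tagged eIF4A1, and the preference was the eIF4A2 difference minus the eIF4A1 difference. Members were selected on these measured values: a transcript belonged to the set when its preference was 1 or more. It also needed at least 100 counts in each of the 4 input libraries and a listed length below 3000. The set held 1181 of 39314 eligible transcripts (3.0%), out of 77343 transcripts with distinct counts. Transcripts of one locus can share reads, so neighbouring transcripts with correlated counts were grouped, which gave about 544 loci out of 11250 eligible ones (4.84%). Of these loci, 290 held 1 transcript of the set, and the most in a locus was 16.

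eIF4A1 and eIF4A2 are closely related DEAD-box RNA helicases. As part of the eIF4F complex at the mRNA cap, with the cap-binding protein eIF4E and the scaffold eIF4G, an eIF4A helicase unwinds structure in the 5' untranslated region so that the small ribosomal subunit can load and scan. eIF4A2 has also been linked to repression of mRNAs through the CCR4-NOT deadenylase complex. mTORC1 controls the assembly of eIF4F through the 4E-BP proteins, and it controls LARP1, an RNA-binding protein that binds mRNAs starting with a 5' terminal oligopyrimidine tract. PP242 inhibits the kinase mTOR.

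The series comprised 31 libraries. Ribosome profiling, which counts the RNA fragments protected by ribosomes (footprints), was done on 3 genotypes: naive, EIF4A1 knockout (KO) and EIF4A2 KO. Each genotype had a pair of vehicle (DMSO) libraries, plus single libraries from cells given PP242 for 30 min at 1 µM or at 10 µM. RNA-seq was limited to the naive and EIF4A1 KO genotypes, at 2 libraries per genotype. Cells expressing eIF4A1 or eIF4A2 with a streptavidin-binding peptide (SBP) gave 2 input and 2 pulldown libraries per protein, and these 8 libraries chose the set. In a separate SBP-eIF4A1 experiment the cells were transfected with siRNA for 72 h. Its control siRNA (siControl) arm had 2 inputs and 2 pulldowns, and its LARP1 siRNA (siLARP1) arm had 2 inputs and 1 pulldown. The labels do not say whether the SBP-eIF4A1 and SBP-eIF4A2 pulldowns were made side by side, how many clones each KO represents or whether the SBP cells keep their own eIF4A proteins. Sample titles write the replicate number in 2 forms. RNA-seq, EIF4A2 KO profiling and SBP-eIF4A2 libraries share a form, and naive and EIF4A1 KO profiling and SBP-eIF4A1 libraries share the other. Comparisons of EIF4A2 KO cells with other genotypes, footprints against RNA and the preference cross these forms. Whether the forms mark separate batches is not stated, so a batch cannot be told apart from genotype, assay or protein there. No pulldown from untagged cells was analysed here, so RNA that binds the beads themselves is part of every capture value. The files list transcripts by Ensembl identifier without gene names, so the loss of EIF4A1, EIF4A2 or LARP1 RNA, markers of the cell line and gene lists were not examined. Totals over distinct transcripts were 7467192 to 19075559 counts in ribosome profiling, 58161551 to 63648586 in RNA-seq and 35293504 to 52205005 in pulldown and input libraries. Replicates differed by more than counting noise in every pair, with a chi-square per transcript from 1.29 for the EIF4A1 KO DMSO footprints to 20.1 for the siLARP1 inputs. Nothing in the labels says that replicates came from separate cultures, so p-values measure the spread between these libraries only.

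In the libraries that chose them, the transcripts of the set were mostly depleted with eIF4A1 and mildly enriched with eIF4A2. The median pulldown minus input difference, in log2 CPM (counts relative to the library's total), was -0.76 and -0.72 in the SBP-eIF4A1 replicates and 0.40 and 0.41 in the SBP-eIF4A2 replicates. All eligible transcripts had medians of -0.29 and -0.27 with eIF4A1 and of 0.02 and 0.01 with eIF4A2. The set's medians thus lay below the eligible medians with eIF4A1 and above them with eIF4A2. The rule sets the difference of the captures. Choosing on it favours low values with eIF4A1 and high values with eIF4A2, so this split is not a separate result. Among the 1181 transcripts, 605 were below 0 with eIF4A1 and above 0 with eIF4A2, 226 were above 0 with both proteins and 350 below 0 with both. Across all eligible transcripts the captures with the 2 proteins were close (Spearman rho of 0.89 across transcripts, which share libraries and depth and are not replicates), so the preference was a small departure from a shared pattern.

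**Figure D1:**
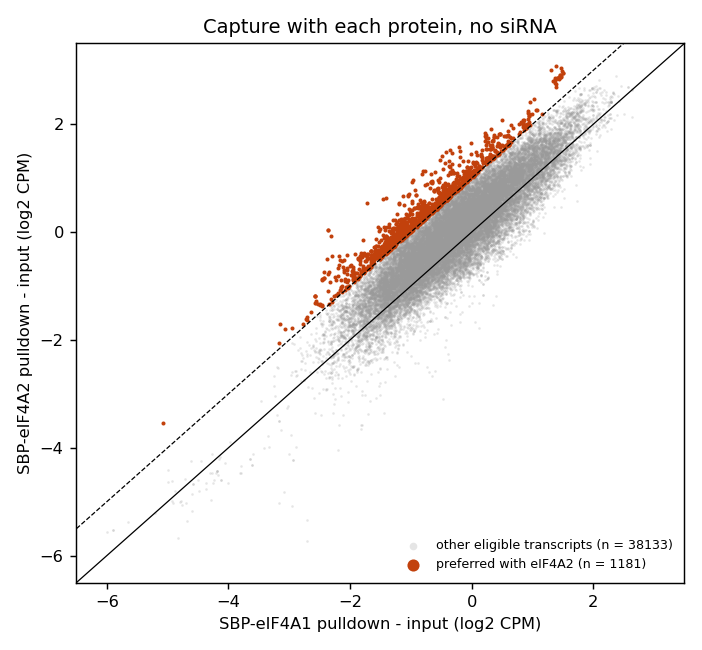
Capture of each eligible transcript with SBP-eIF4A1 (x axis) and SBP-eIF4A2 (y axis), as pulldown minus input in log2 CPM, means of 2 libraries each. The 1181 transcripts of the set (orange) lie on or above the dashed line, a preference of 1; the solid line marks equal capture, and the other eligible transcripts are grey.

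The preference had a median of 1.12 and reached 2.40, so most of the set lay close to the threshold of 1. Computed from the same-numbered libraries alone, it was at least 1 in both sets of libraries for 614 of the 1181, a description of the values that chose them. On the other side, only 111 eligible transcripts had a preference of -1 or less. Part of the preference sat in the inputs: the eIF4A2 input was lower than the eIF4A1 input by a median of 0.13 on the log2 scale for the set (median difference -0.13, against 0.01 for eligible transcripts), and the pulldowns differed by a median of 1.05 (against 0.30).

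The highest preference belonged to ENST00000638348.1. Its eIF4A1 inputs were 3.07 and 2.85 CPM and its eIF4A1 pulldowns 0.467 and 0.682 CPM, whereas its eIF4A2 inputs were 2.85 and 2.38 CPM and its eIF4A2 pulldowns 2.63 and 2.71 CPM. It was thus depleted with eIF4A1 and kept at its input level with eIF4A2. The next locus, ENST00000504841.6, had eIF4A1 inputs of 3.40 and 3.70 CPM and pulldowns of 1.02 and 1.13 CPM, against eIF4A2 inputs of 3.34 and 4.02 CPM and pulldowns of 5.78 and 4.92 CPM. At the threshold itself, ENST00000570368.5 lay just inside, with eIF4A1 and eIF4A2 captures of -0.51 and 0.49. ENST00000579390.1 lay just outside with captures of -0.74 and 0.26.

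Transcripts of the set had greater listed lengths and were less abundant than eligible transcripts in general. Listed lengths went down to 27 in the set and to 7 among eligible transcripts, and whether they cover whole transcripts is not stated. The length column of the files gives no unit and was used to rank transcripts: the median listed length was 615 in the set and 318 among eligible transcripts, and 834 of the 1181 (70.6%) were longer than the eligible median. With eligible transcripts split into 4 equal bins by length, the set held 166, 181, 236 and 598 transcripts from the shortest bin to the longest. The median of a transcript's mean input count was 299 in the set and 451 among eligible transcripts. The preference and the length had a Spearman rho of 0.43 over eligible transcripts, given as a description only.

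The siRNA experiment repeated the SBP-eIF4A1 pulldown in libraries that the rule did not use, and there the set was among the well-captured transcripts. The median pulldown minus input difference was 1.77 and 1.96 in the siControl replicates, against 0.36 and 0.41 for all eligible transcripts. In edgeR's quasi-likelihood test of siControl pulldown against input, 931 of the 1181 transcripts were called higher and 41 lower at a Benjamini-Hochberg adjusted p under 0.05. Of eligible transcripts, 28% were called higher and 38.5% lower. The 931 fell in 380 of the 544 loci. A preference for eIF4A2 over eIF4A1 was therefore not seen when the siControl libraries stood for eIF4A1.

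**Figure D2:**
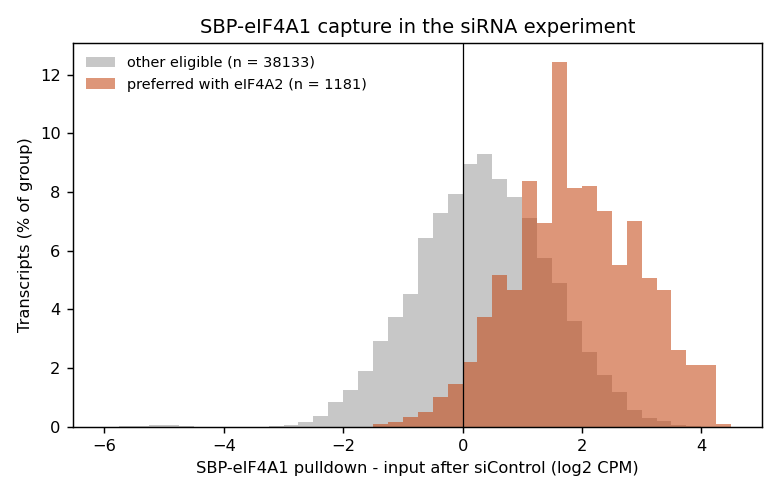
Distribution of SBP-eIF4A1 capture after siControl (x axis, pulldown minus input in log2 CPM, mean of 2 libraries each) as the percent of each group (y axis), for the set (orange) and the other eligible transcripts (grey). Of the set, 96.4% lies above 0.

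The 2 SBP-eIF4A1 experiments placed most of the set on opposite sides of their inputs. With libraries scaled by their totals, capture without siRNA was above 0 for 19.1% of the set and 38.0% of eligible transcripts. After siControl it was above 0 for 96.4% of the set and 63.5% of eligible transcripts. Put in place of the SBP-eIF4A1 libraries without siRNA as the eIF4A1 side of the rule, the siControl libraries left 2 of the 1181 (0.169%) with a preference of 1 or more. Of the 39314 eligible transcripts, 3378 (8.59%) had such a preference. The median preference became -1.47 in the set against -0.37 for eligible transcripts. Over eligible transcripts, siControl capture had a Spearman rho of 0.25 with SBP-eIF4A1 capture without siRNA and of 0.52 with SBP-eIF4A2 capture, and of 0.61 with the preference itself. These are descriptions across transcripts of few libraries, and differences between the experiments other than the siRNA transfection are not given by the labels, so protein and experiment cannot be told apart in the preference.

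Level and scale were examined next. Summed over the set, the transcripts took 1.08% and 1.05% of the counts in the siControl inputs and 4.21% and 4.75% in the siControl pulldowns. Without siRNA they took 0.945% and 0.917% of the SBP-eIF4A1 pulldowns and 1.99% and 1.91% of the SBP-eIF4A2 pulldowns. The set's share was thus higher in both siControl pulldowns than in any pulldown made without siRNA. For siControl capture, the eligible median was 0.38 when libraries were scaled by their totals and -0.16 under edgeR's TMM scaling, a shift of 0.54. The set stood 1.44 above the eligible median on both scales, and 92.2% of it lay above that median.

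**Figure D3:**
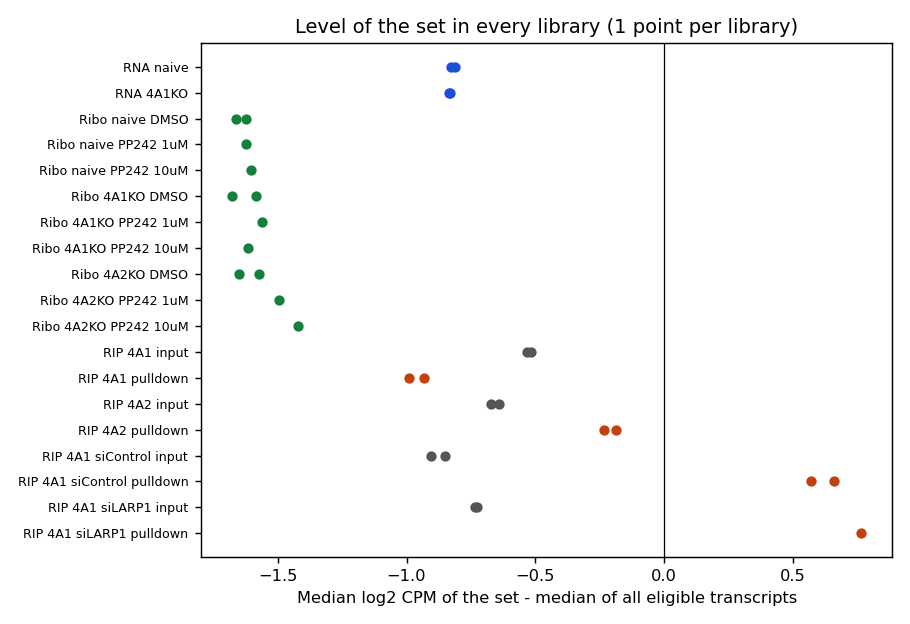
Median log2 CPM of the set minus the median of all eligible transcripts (x axis) in each of the 31 libraries, by group (y axis; RIP marks pulldowns and their inputs, 4A1 and 4A2 the proteins, KO knockouts). The set sits below the eligible transcripts in all but 3 libraries, the 2 siControl pulldowns (0.57 and 0.66) and the siLARP1 pulldown (0.76).

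The capture after siControl was higher in the bins of higher preference, except at the lowest end. Among eligible transcripts, the median fitted log2 capture was -1.37 at a preference of -1 or less, -1.82 between -1 and -0.5, -1.02 at a preference between -0.5 and 0, -0.18 between 0 and 0.5, 0.63 between 0.5 and 1, 1.20 between 1 and 1.25, 1.43 between 1.25 and 1.5, and 2.22 at 1.5 or more. The 111 transcripts at a preference of -1 or less were mostly called lower (82.9%). Length moved with the capture but the set stood apart within each length bin: 56.0%, 76.8%, 78.4% and 86.0% of it was called higher from the shortest bin to the longest, against 14.4%, 20.8%, 29.0% and 48.0% of eligible transcripts. Within 4 equal bins of RNA level, from the lowest to the highest, the set had 72.7%, 80.4%, 84.5% and 90.0% called higher, and eligible transcripts 36.2%, 28.9%, 27.0% and 20.0%.

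The 2 loci of the set with the highest siControl capture were strongly captured in every pulldown. ENST00000530217.2 had siControl inputs of 14.5 and 13.2 CPM and siControl pulldowns of 229 and 290 CPM, a log2 change of 3.68 ± 0.20 (SE). Its siLARP1 inputs were 17.9 and 22.6 CPM and its siLARP1 pulldown 256 CPM. Without siRNA it went from 11.2 and 10.6 CPM to 32.3 and 29.4 CPM with SBP-eIF4A1, and from 12.2 and 14.4 CPM to 99.9 and 105 CPM with SBP-eIF4A2. The pulldowns did not overlap their inputs in any of these groups. Neighbouring rows of nearly equal lengths and counts surround this transcript, and reads shared with a near-identical copy could be counted in each, so its level is uncertain. At the other end, ENST00000634973.1 fell from 1.83 and 2.32 CPM to 0.850 and 0.869 CPM, a log2 change of -1.81 ± 0.29 (SE).

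The capture of the set after LARP1 siRNA was high, as after siControl. With 1 siLARP1 pulldown library there was no test of a change. The median change of capture from siControl to siLARP1 was -0.13 in the set and -0.15 among eligible transcripts, a difference of 0.02 that ranged from -0.01 to 0.09 as each library was left out. The siLARP1 pulldown devoted 5.19% of its counts to the set, the highest share of any library.

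In the inputs, few transcripts of the set changed after LARP1 siRNA. The median log2 change of siLARP1 against siControl was 0.13 in the set and -0.02 among eligible transcripts, and 68.1% of the set was above 0. edgeR called 12 of the 1181, 10 higher and 2 lower, with 1.39% of eligible transcripts called, and 178 had an unadjusted p under 0.05. ENST00000585600.5 rose from 0.788 and 0.491 CPM to 1.71 and 3.09 CPM (log2 change 1.66 ± 0.30 SE, edgeR adjusted p = 0.00399). ENST00000518677.1 fell from 12.4 and 11.3 CPM to 6.44 and 4.70 CPM (-1.30 ± 0.20 SE, edgeR adjusted p = 0.000682). The calls rested on single libraries: there were 0 without siLARP1 input replicate 2, 2 without siControl input replicate 2 and 20 without siControl input replicate 1.

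Footprints on the set were few relative to its RNA. In naive cells in DMSO, the median difference between footprints and RNA was -1.12 on the log2 scale, against -0.15 for eligible transcripts, and 909 of the 1181 (77.0%) lay below the eligible median. The 4 pairings of a footprint and an RNA library gave medians from -1.15 to -1.09. edgeR called 814 transcripts lower in footprints than in RNA and 190 higher, with 42.5% of eligible transcripts called lower and 38.4% higher. In EIF4A1 KO cells 767 were lower and 180 higher, with 39.7% and 36% of eligible transcripts, and the median was -1.02 against -0.11. The footprint and RNA assays were prepared by different protocols, so the difference is relative to the other transcripts of each assay. These comparisons were added after the files had been seen.

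**Figure D4:**
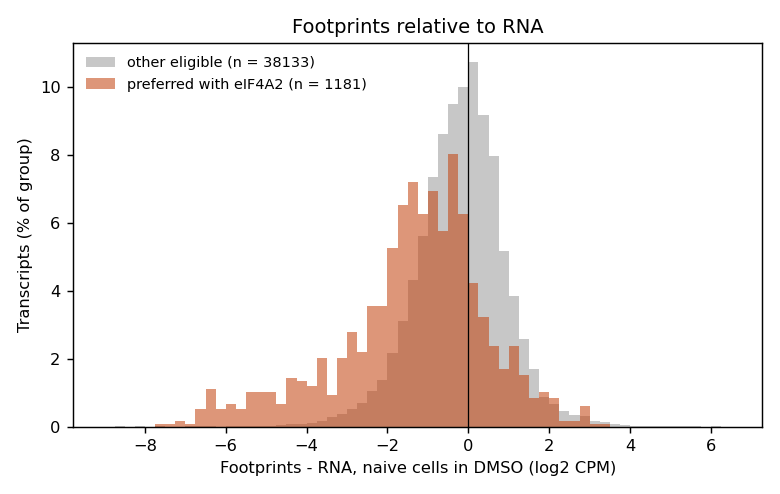
Distribution of footprints minus RNA in naive cells in DMSO (x axis, log2 CPM, mean of 2 libraries each) as the percent of each group (y axis), for the set (orange) and the other eligible transcripts (grey). The set has a tail below -3 that holds 194 of its 1181 transcripts.

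A tail of the set had almost no footprints. At a difference of -3 or less were 194 transcripts of the set (16.4%) in 72 loci, compared with 674 eligible transcripts (1.71%). ENST00000331436.6 had RNA levels of 5.23 and 4.47 CPM and no footprint count in either naive DMSO library, so its footprints were at least 35.3-fold lower than its RNA at a floor of 3 counts per library. It had 87.8 and 103 CPM in the siControl pulldowns against inputs of 5.71 and 5.18 CPM. Its locus held 11 transcripts of the set. How shared reads were counted is not known, so its footprint level is uncertain, as for others of the 194 that share a locus. The opposite case was ENST00000570971.2, with RNA of 2.08 and 2.24 CPM and footprints of 18.9 and 18.5 CPM, a log2 difference of 3.22 ± 0.10 (SE).

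The footprint deficit was present at each length. From the shortest to the longest bin the set's median footprints minus RNA was -0.65, -0.95, -1.46 and -1.21, against 0.07, -0.06, -0.19 and -0.48 for eligible transcripts. It deepened with the preference: the median was -0.91 between 1 and 1.25, -1.92 between 1.25 and 1.5 and -2.64 above. Over eligible transcripts, siControl capture and footprints minus RNA had a Spearman rho of -0.43.

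RNA levels in EIF4A1 KO cells changed in both directions, as they did for eligible transcripts. edgeR called 316 of the 1181 higher and 240 lower than in naive cells, or 47.1% in all, with 51.1% of eligible transcripts called. The median log2 change was 0.03 in the set and 0.01 among eligible transcripts. The largest rise among loci whose groups did not overlap was ENST00000586751.5, at 6.30 and 6.42 CPM in naive cells and 21.7 and 24.1 CPM in EIF4A1 KO cells (1.84 ± 0.07 SE). The largest fall was ENST00000660292.1, at 5.33 and 4.73 CPM in naive cells and 0.663 and 0.402 CPM in EIF4A1 KO cells (-3.24 ± 0.16 SE). The inputs of the SBP-eIF4A1 and SBP-eIF4A2 cells also differed for this transcript, at 13.0 and 13.5 CPM and at 3.27 and 3.29 CPM.

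Footprints in DMSO rose more often than they fell in both knockouts. For EIF4A1 KO against naive cells, 1026 transcripts of the set had enough counts to be tested and 155 did not; edgeR called 149 higher and 47 lower, with 14.4% of eligible transcripts called higher and 15.8% lower. As shares of the tested set these were 14.5% and 4.58%. For EIF4A2 KO against naive cells, 54 were higher and 13 lower (5.26% and 1.27%), with 4.72% and 5.81% of eligible transcripts. Over all lengths the share called higher was near the background and the share called lower was below it, and the set's greater listed length moved with this. In the longest length bin, which held 527 of the 1026, EIF4A1 KO footprints were higher for 20.1% of the set against 28.6% of eligible transcripts and lower for 6.64% against 8.67%. In the same bin, EIF4A2 KO footprints were higher for 6.26% against 5.77% and lower for 1.52% against 4.18%. Eligible transcripts were also split into 4 equal bins by footprint level, of which the lowest held 540 of the 1026. From lowest to highest, EIF4A1 KO footprints were higher for 5.56%, 17.1%, 28.3% and 43.0% of the set. Eligible transcripts had 4.13%, 10.4%, 18.5% and 23.8%. Lower calls were 3.33%, 7.43%, 5.80% and 1.27% against 10.3%, 13.0%, 15.2% and 24.3%. The part of length and of footprint level in these shares was not tested. The 2 comparisons share the naive libraries.

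Single loci of the set show these changes in the 3 genotypes. ENST00000542877.5 had footprints of 3.44 and 3.90 CPM in naive cells, 3.48 and 2.61 CPM in EIF4A1 KO cells and 11.5 and 11.9 CPM in EIF4A2 KO cells, a log2 change of 1.64 ± 0.14 (SE) for EIF4A2 KO against naive. ENST00000375712.4 fell in EIF4A2 KO cells, from 5.61 and 5.00 CPM to 2.93 and 2.86 CPM (-0.89 ± 0.18 SE), and was at 5.86 and 5.43 CPM in EIF4A1 KO cells. In EIF4A1 KO cells, ENST00000423214.1 fell from 1.67 and 1.36 CPM to 0.199 and 0.543 CPM (-2.09 ± 0.48 SE), and its RNA was 3.84 and 3.85 CPM in naive and 1.42 and 1.15 CPM in EIF4A1 KO cells. Tested directly, EIF4A1 KO and EIF4A2 KO cells differed for 236 transcripts of the set, 132 higher and 104 lower in EIF4A1 KO, with 30.4% of eligible transcripts called. Without EIF4A1 KO DMSO replicate 1 the direct count was 133, and the count for EIF4A1 KO against naive cells was 108. The count for EIF4A2 KO against naive cells was 40 without EIF4A2 KO DMSO replicate 2, 44 without naive DMSO replicate 1 and 34 without naive DMSO replicate 2.

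RNA and footprints were both called in the same direction in EIF4A1 KO cells for 107 of these transcripts. Of the 149 transcripts with higher footprints, 83 also had higher RNA and 15 lower RNA; of the 47 with lower footprints, 24 also had lower RNA and 2 higher RNA. As shares these were 55.7% and 10.1% of the higher footprints, against 63.1% and 4.68% for eligible transcripts, and 51.1% and 4.26% of the lower footprints, against 56.0% and 9.59%. A change in translation efficiency (footprints relative to RNA, tested in edgeR as an interaction of assay and genotype) was called for 105 of 1181, 70 higher and 35 lower in EIF4A1 KO cells, with 6.62% of eligible transcripts called higher and 10.1% lower. Its median log2 change was -0.01 in the set and -0.02 among eligible transcripts. The 1181 include the 155 with too few counts for the test of footprints alone. In the lowest of 4 equal bins of footprint level, with 695 of the 1181, 1.58% were higher and 1.01% lower. Eligible transcripts there had 1.54% and 4.36%. In the highest bin the set had 30.4% higher and 8.86% lower, against 14.0% and 18.0%. The part of footprint level was not tested. ENST00000637999.1 had the second largest fall: its RNA was 2.37 and 2.43 CPM in naive cells and 2.30 and 2.58 CPM in EIF4A1 KO cells, while its footprints went from 3.54 and 4.53 CPM to 1.59 and 2.06 CPM (-1.24 ± 0.29 SE). Without EIF4A1 KO DMSO replicate 1, 55 transcripts of the set were called.

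PP242 raised footprints on a minority of the set in naive and EIF4A2 KO cells, and seldom in EIF4A1 KO cells. Both doses were taken as a group of 2 libraries against 2 DMSO libraries, since each dose had 1 library per genotype, and 1036 transcripts of the set were tested. The spread within the PP242 group thus lies between doses and not between replicates of a dose. In naive cells edgeR called 72 higher and 7 lower, with 6.38% of eligible transcripts called higher and 8.77% lower. In EIF4A2 KO cells 84 were higher and 9 lower, with 7.38% and 11.3% of eligible transcripts. In EIF4A1 KO cells 8 were higher and 24 lower, with 3.34% and 5.58% of eligible transcripts. As shares of the tested set, 6.95%, 8.11% and 0.772% were higher and 0.676%, 0.869% and 2.32% lower in naive, EIF4A2 KO and EIF4A1 KO cells, so over all lengths the share called higher was near the background in the first 2 genotypes and the share called lower was below it in all 3. In the longest length bin, with 532 of the 1036, the set had 8.08% higher against 11.8% of eligible transcripts in naive cells and 10.2% against 15.4% in EIF4A2 KO cells. Lower calls there were 0.752% against 3.43% and 1.32% against 4.04%, whereas in the shortest bin 14.5% and 19.7% of eligible transcripts were lower and 0 of the set. The part of length in the shares over all lengths was not tested.

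**Figure D5:**
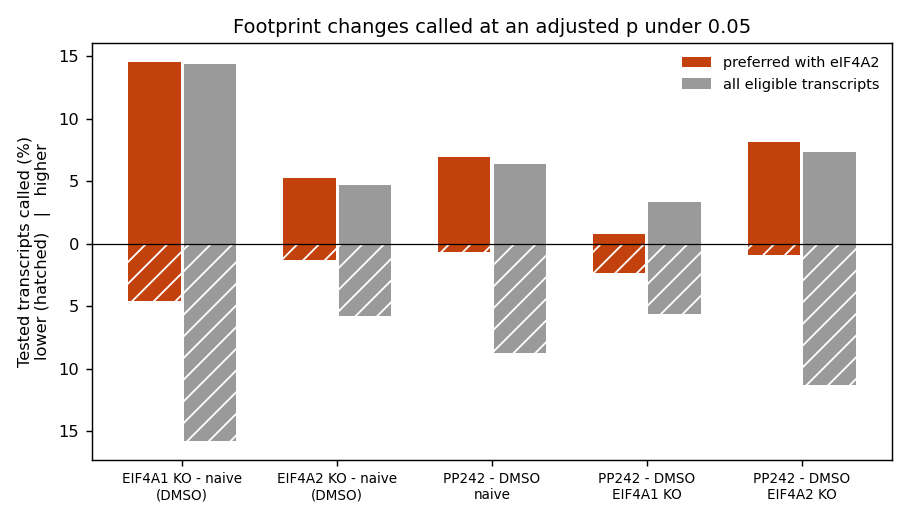
Percent of tested transcripts called higher (upward bars) and lower (hatched, downward) in footprints at an adjusted p under 0.05 (edgeR), for the set (orange) and all eligible transcripts (grey). The set's share called lower is at most 4.58% in these 5 comparisons, below that of eligible transcripts in each.

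Where footprints were plentiful, none of the set was called lower after PP242 in naive or EIF4A2 KO cells, and some were in EIF4A1 KO cells. Of eligible transcripts in the top of 4 equal bins of footprint level, 79 belonged to the set: 22 of these (27.8%) were called higher and 0 lower in naive cells, whereas 14.4% and 19.9% of eligible transcripts were. In EIF4A2 KO cells 29 (36.7%) were higher and 0 lower, against 15.7% and 25.2%. In EIF4A1 KO cells 2 were higher and 7 lower (8.86%), against 5.57% and 16.1%. Of the 72 and 84 transcripts that rose in naive and EIF4A2 KO cells, 40 were the same, or 55.6% and 47.6% of each list. Among eligible transcripts the overlap was 48.0% and 41.5% of the lists. In naive and EIF4A1 KO cells 1 transcript of the set rose in both (1.39% of the naive list), against 4.19% of that list for eligible transcripts.

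The response to PP242 differed between EIF4A1 KO cells and the other genotypes for some of the set. The test of the difference called 49 transcripts for EIF4A1 KO against naive cells, 6 with a higher and 43 with a lower response in EIF4A1 KO; 5.1% and 3.58% of eligible transcripts were called. Against EIF4A2 KO cells it called 42, 2 higher and 40 lower, with 5.55% and 3.48% of eligible transcripts. In the longest length bin, lower responses in EIF4A1 KO were called for 5.26% of the set against 8.69% of eligible transcripts relative to naive cells, and for 6.02% against 9.36% relative to EIF4A2 KO cells. By footprint level, from the lowest of 4 equal bins to the highest, the set had 0.182%, 4.46%, 9.42% and 21.5% relative to naive cells. Eligible transcripts had 0.202%, 0.997%, 2.93% and 10.0%. Relative to EIF4A2 KO cells the values were 0.182%, 2.60%, 7.25% and 27.8% against 0.233%, 1.13%, 3.14% and 9.29%. The part of length and of footprint level was not tested. Between EIF4A2 KO and naive cells edgeR called 0, with 41 at an unadjusted p under 0.05 and 0.141% of eligible transcripts called; DESeq2 also called 0.

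ENST00000425608.5 was among the transcripts with a lower response in EIF4A1 KO cells. In naive cells its footprints were 2.46 and 2.84 CPM in DMSO, 5.14 CPM at 1 µM and 4.53 CPM at 10 µM PP242, and in EIF4A2 KO cells 3.03 and 2.41 CPM, then 4.75 and 4.16 CPM. In EIF4A1 KO cells they were 5.76 and 4.13 CPM in DMSO, 3.33 CPM at 1 µM and 3.62 CPM at 10 µM. The response in EIF4A1 KO cells was lower than in naive cells by a log2 difference of -1.35 ± 0.29 (SE, edgeR adjusted p = 0.00146). The PP242 libraries lay above both DMSO libraries in naive and EIF4A2 KO cells and below both in EIF4A1 KO cells. ENST00000319545.12 went the other way, from 6.39 and 6.82 CPM to 4.31 and 5.55 CPM in naive cells and from 2.48 and 2.72 CPM to 5.47 and 4.66 CPM in EIF4A1 KO cells, a difference of 1.43 ± 0.28 (SE).

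The PP242 counts depended on the test and on single libraries. A slope over the rank of the dose (DMSO, 1 µM, 10 µM) was fitted in place of the pooled doses. It called 1, 0 and 5 transcripts of the set in naive, EIF4A1 KO and EIF4A2 KO cells, and 0 for both differences that involve EIF4A1 KO. Without the naive 1 µM library the naive count was 32 and without naive DMSO replicate 1 it was 47; the EIF4A2 KO count was 40 without its DMSO replicate 2, 42 without its 1 µM library and 56 without its DMSO replicate 1. The EIF4A1 KO count was 7 or 10 without its DMSO replicate 1 or 2, and 16 or 17 without its 1 µM or 10 µM library. The difference between EIF4A1 KO and naive cells had 30 calls without EIF4A1 KO DMSO replicate 1 and 32 without naive DMSO replicate 1. The difference between EIF4A1 KO and EIF4A2 KO cells had 15 and 27 calls without EIF4A1 KO DMSO replicate 1 or 2, and 22 without EIF4A2 KO DMSO replicate 2.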

How the data were processed

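Each of 31 libraries had 1 deposited file of raw counts per Ensembl transcript, made by the authors; per the submitters' processing notes, the tools named are CASAVA 1.8 and STAR 2.7.0a and the build is hg38. The counting tool and the annotation are not given in the sources used here. The authors also deposited a length per transcript, a score without a stated unit, used for the limit of 3000 and to rank. It is missing for 126981 of 227264 listed transcripts, none of which has a count in any library, and is below 0 for 313, none of them eligible. How a read shared by several transcripts was counted is therefore not known. Transcripts with equal counts in all libraries were collapsed to the first. CPM is computed here from the deposited counts (pseudocount 0.5 on the log2 scale, relative to the file's sum). Loci are rows within 10 of each other whose log2 CPM correlates at 0.9 or more, an approximate grouping.

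Tests used edgeR 4.0.16 in R 4.3.3: TMM, filterByExpr (minimum count 10, minimum total 15), glmQLFit and glmQLFTest, two-sided, adjusted by Benjamini-Hochberg over all transcripts tested, called at an adjusted p under 0.05. Fits covered the RNA-seq libraries, the 6 DMSO profiling libraries, RNA-seq with DMSO profiling (8 libraries), all 12 profiling libraries and the 7 siRNA libraries. Named transcripts are the loci with the highest preference, those next to its threshold and, per comparison, those with the largest rise and fall among calls whose groups do not overlap, at most 2 in each direction; examples were picked among these with their values in view. The scripts were run on simulated counts with known changes for RNA in EIF4A1 KO, PP242 in naive cells and siControl capture. The simulated spread was fixed and not taken from these libraries, and the other contrasts were not simulated. DESeq2 1.42.0 and other alternatives are given in the closing section. The members and lists were chosen with earlier results of these data known. No transcript could be paired with a gene, so planned gene lists, marker checks and sequences were not used here.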

Additional observations from a re-analysis of the deposited data

Results flagged for a closer look

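A direct test found that footprints in DMSO differed between EIF4A1 KO and EIF4A2 KO cells for 236 of 1026 tested transcripts of the set (23.0%, against 30.4% of eligible transcripts). The response to PP242 differed between EIF4A1 KO and naive cells for 49 of 1036 tested transcripts (4.73%, against 8.68%), and between EIF4A1 KO and EIF4A2 KO cells for 42 (4.05%, against 9.03%). Each is a difference between genotypes, called by edgeR in a contrast of its own, and in each the share of the set was below that of eligible transcripts. The lowest of 4 equal bins of footprint level held 540 of the 1026 and 550 of the 1036. In the highest bin, footprints were higher in EIF4A1 KO than EIF4A2 KO cells for 44.3% against 23.5% and lower for 0% against 23.3%. Lower PP242 responses in EIF4A1 KO were called there for 21.5% against 10.0% (naive) and 27.8% against 9.29% (EIF4A2 KO). Higher ones were called for 0% against 10.4% and 13.1%. The part of footprint level was not tested.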

How the results depend on the processing

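Counts are transcripts of the set called. DESeq2 called 344 for RNA in EIF4A1 KO, 93, 9 and 98 for DMSO footprints in EIF4A1 KO, EIF4A2 KO and between them, 40, 10 and 37 for PP242 in naive, EIF4A1 KO and EIF4A2 KO cells, and 26 and 21 for the differences of EIF4A1 KO from naive and EIF4A2 KO. With 1 transcript per locus, which keeps 355 of the set, the counts were 160 for RNA, 59, 24 and 64 for footprints, 29 for translation efficiency, 291 and 272 for footprints against RNA in naive and EIF4A1 KO cells, 19, 14 and 24 for PP242, 17 and 13 for its differences, 268 for siControl capture and 3 for siLARP1 inputs; this table holds fewer transcripts. The slope over the rank of the dose gave 1, 0 and 5, and 0 and 0. Without the filter, siLARP1 inputs gave 24. The siControl libraries as the eIF4A1 side would put 3378 eligible transcripts in the set. The cause was not tested where none is named.

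Leaving out each library in turn gave 440 to 506 calls for RNA, 108 to 153, 34 to 51 and 133 to 191 for footprints, 55 to 105 for translation efficiency, 934 to 984 and 840 to 919 for footprints against RNA, 32 to 66, 7 to 17 and 40 to 64 for PP242 in naive, EIF4A1 KO and EIF4A2 KO cells, 30 to 50 and 15 to 34 for its differences of EIF4A1 KO from naive and EIF4A2 KO, and 0 to 0 for EIF4A2 KO from naive. The range was 890 to 945 for siControl capture, 0 to 20 for siLARP1 inputs, 1125 to 1567 for the size of the set and -0.0084 to 0.0941 for the siLARP1 change of capture, whose 0.0941 came without siControl pulldown replicate 2.

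Replicate numbers are shared by label only. Same-numbered deviations correlated at -0.064 to 0.008 between RNA or footprint groups, 0.49 between siControl inputs and pulldowns and -0.16 between siControl and siLARP1 inputs. With 2 samples a group and no label that ties them, the numbers were not taken as pairs, although the siControl value goes the way of a pairing. With the replicate number as a block, edgeR called 536 for RNA, 179, 60 and 221 for footprints, 95 for translation efficiency, 963 and 907 for footprints against RNA, 978 for siControl capture and 8 for siLARP1 inputs; with crossed pairing, chosen after seeing the data, siLARP1 inputs gave 22. Of 430 checks of named transcripts, 310 kept their call, 120 lost it and 0 reversed; of 137 checks of a median difference, 9 moved beyond the spread.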
